A study of Homo sapiens with 18 samples.

Results

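TMEM100, the 4 ID genes (ID1, ID2, ID3 and ID4), the inhibitory SMAD genes SMAD6 and SMAD7, and the receptor genes ACVRL1 and BMPR2 were read as 9 of the 18417 genes measured in H295R cells. H295R is an established human cell line derived from an adrenocortical carcinoma. Each of the 9 genes has 1 probe set of its own on the array, shared with no other symbol. TMEM100 and ID3 were picked for their dexamethasone responses, and the arrays of every treatment can have entered that choice, so their values are given as a description throughout, without a test. The other 7 genes were taken as the ID family and as receptors and inhibitors of the same pathway.

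The study crossed 2 stable H295R lines with 3 treatments. Control cells carry the empty pcDNA4 vector, and GRα cells carry pcDNA4 with GRα, the ligand-binding form of the glucocorticoid receptor, and neither insert is inducible. All cells were grown to 70% confluence, kept without serum for 24 h and treated for 6 h with ethanol vehicle, with dexamethasone (100 nM), a synthetic glucocorticoid agonist, or with RU486 (100 nM), a receptor antagonist. There are 3 arrays, replicates A, B and C, in each group except GRα cells with RU486, where replicate A has no values and 2 arrays remain. Each vector is represented by 1 line, so an effect of the receptor cannot be told apart from any other difference between the lines. Replicates are labelled biological, with no word on separate cultures, so p-values reflect sample-to-sample spread only, and part of it may be technical.

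BMP ligands bind pairs of type I and type II receptor kinases, which phosphorylate SMAD proteins that enter the nucleus and switch on target genes. ID genes are classical targets, and the ID proteins bind basic helix-loop-helix transcription factors and keep them off DNA. SMAD6 and SMAD7 are also targets, and their proteins block the receptors, which closes a negative feedback loop. TMEM100 encodes a transmembrane protein best known as a target of ACVRL1 (ALK1) signalling in endothelial cells.

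Over all genes, the correlation between arrays was 0.987 to 0.997 within a line and 0.971 to 0.977 between lines. NR3C1, the receptor gene, separated the lines on all arrays, and in vehicle it was 1.5-fold higher in GRα cells (log2 0.59 ± 0.07 SE, limma adjusted p = 1.37e-06). The array of GRα cells in vehicle, replicate B, stood apart from its line, with an array weight of 0.19 where the others had 0.65 to 2.30. Where a difference of the 9 genes rests on it, the value without it is given too. Marker levels and calls, and differences of the other pathway genes, are given with it only. Calls of some pathway genes were refitted with each array left out. The 9 measured adrenocortical markers averaged 8.41 to 8.62 log2 on control arrays and 8.03 to 8.20 on GRα arrays, and in vehicle 5 were called lower and 1 higher in GRα cells (66.7%). The 12 endothelial markers averaged 5.32 to 5.50 on control arrays and 5.41 to 5.56 on GRα arrays. In vehicle 2 of them, CDH5 and KDR, were called higher in GRα cells (16.7%, beside 33.4% of all genes). With RU486 or dexamethasone none of the 12 was called between the lines (beside 29.2% and 33.3% of all genes). Of 6 chromaffin markers CHGA and CHGB, and of 8 fibroblast markers COL1A1 and PDGFRB, were called higher in GRα cells in vehicle (33.3% and 25%). With RU486 the calls were 5 of 9 adrenocortical, 2 of 6 chromaffin and 1 of 8 fibroblast markers. With dexamethasone they were 4, 2 and 3. The part of these marker levels in the results on the 9 genes was not tested.

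TMEM100 signal was below the array medians (6.28 to 6.35 log2 over all probe sets) in every group but 1, GRα cells given dexamethasone. Its log2 values there were 6.88, 7.20 and 6.86 (replicates A, B and C), against 5.15, 5.25 and 5.36 in GRα cells in vehicle and 5.18 and 5.48 with RU486 (replicates B and C). The dexamethasone arrays lay above all other arrays of the line. Groups were free of overlap at 15.8% of all genes against vehicle and 26.9% against RU486. The dexamethasone mean differed by 1.72 log2 from vehicle (3.3-fold) and by 1.65 log2 from RU486 (3.14-fold). Without GRα vehicle replicate B the difference from vehicle was 1.72 log2 again.

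In control cells TMEM100 read 5.31, 5.28 and 5.65 in vehicle and 5.94, 5.61 and 5.79 with dexamethasone. These groups overlapped, through vehicle replicate C and dexamethasone replicate B, and their means differed by 0.37 log2 (1.29-fold). The control RU486 arrays read 5.40, 5.13 and 5.53, overlapping the vehicle arrays and below every control dexamethasone array (free of overlap at 14.4% of all genes). The mean dexamethasone difference was thus larger in GRα cells by 1.35 log2.

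The order of TMEM100 means was GRα dexamethasone (6.98 ± 0.19 SD, n = 3), control dexamethasone (5.78 ± 0.17 SD, n = 3), control vehicle (5.41 ± 0.21 SD, n = 3), control RU486 (5.36 ± 0.20 SD, n = 3), GRα RU486 (5.33 ± 0.21 SD, n = 2) and GRα vehicle (5.26 ± 0.11 SD, n = 3). The top group was separate from the next (free of overlap at 45.6% of all genes), and every other neighbouring pair overlapped. Without dexamethasone the arrays of the lines overlapped, and the means differed by -0.16 log2 in vehicle and by -0.03 log2 with RU486 (GRα minus control).

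ID3 differed mainly between the lines, and within each line it was lower with dexamethasone. In GRα cells it read 8.00, 8.47 and 7.94 in vehicle, 7.44, 7.59 and 7.52 with dexamethasone, and 7.90 and 8.23 with RU486. Every dexamethasone array lay below every other GRα array (groups were free of overlap at 15.8% of all genes against vehicle and 26.9% against RU486), and the means differed by -0.62 log2 from vehicle (1.54-fold lower) and by -0.55 log2 from RU486 (1.47-fold lower). The highest vehicle value is that of replicate B, and without it the difference from vehicle was -0.45 log2.

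Control cells gave 6.39, 6.06 and 6.34 for ID3 in vehicle, 5.75, 6.03 and 5.93 with dexamethasone, and 6.14, 6.50 and 6.06 with RU486. The dexamethasone arrays were again below all others of the line, by a narrow margin (free of overlap at 12.7% of all genes against vehicle and 14.4% against RU486), and the means differed by -0.36 log2 from vehicle (1.28-fold lower) and by -0.33 from RU486 (1.26-fold lower). The dexamethasone difference in GRα cells minus that in control cells was -0.26 log2, and -0.09 without GRα vehicle replicate B. In order, the means were GRα vehicle (8.14 ± 0.29 SD, n = 3), GRα RU486 (8.07 ± 0.24 SD, n = 2), GRα dexamethasone (7.51 ± 0.07 SD, n = 3), control vehicle (6.26 ± 0.17 SD, n = 3), control RU486 (6.23 ± 0.24 SD, n = 3) and control dexamethasone (5.90 ± 0.14 SD, n = 3). Vehicle and RU486 overlapped in each line, and the other neighbouring groups were separate.

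**Figure D1:**
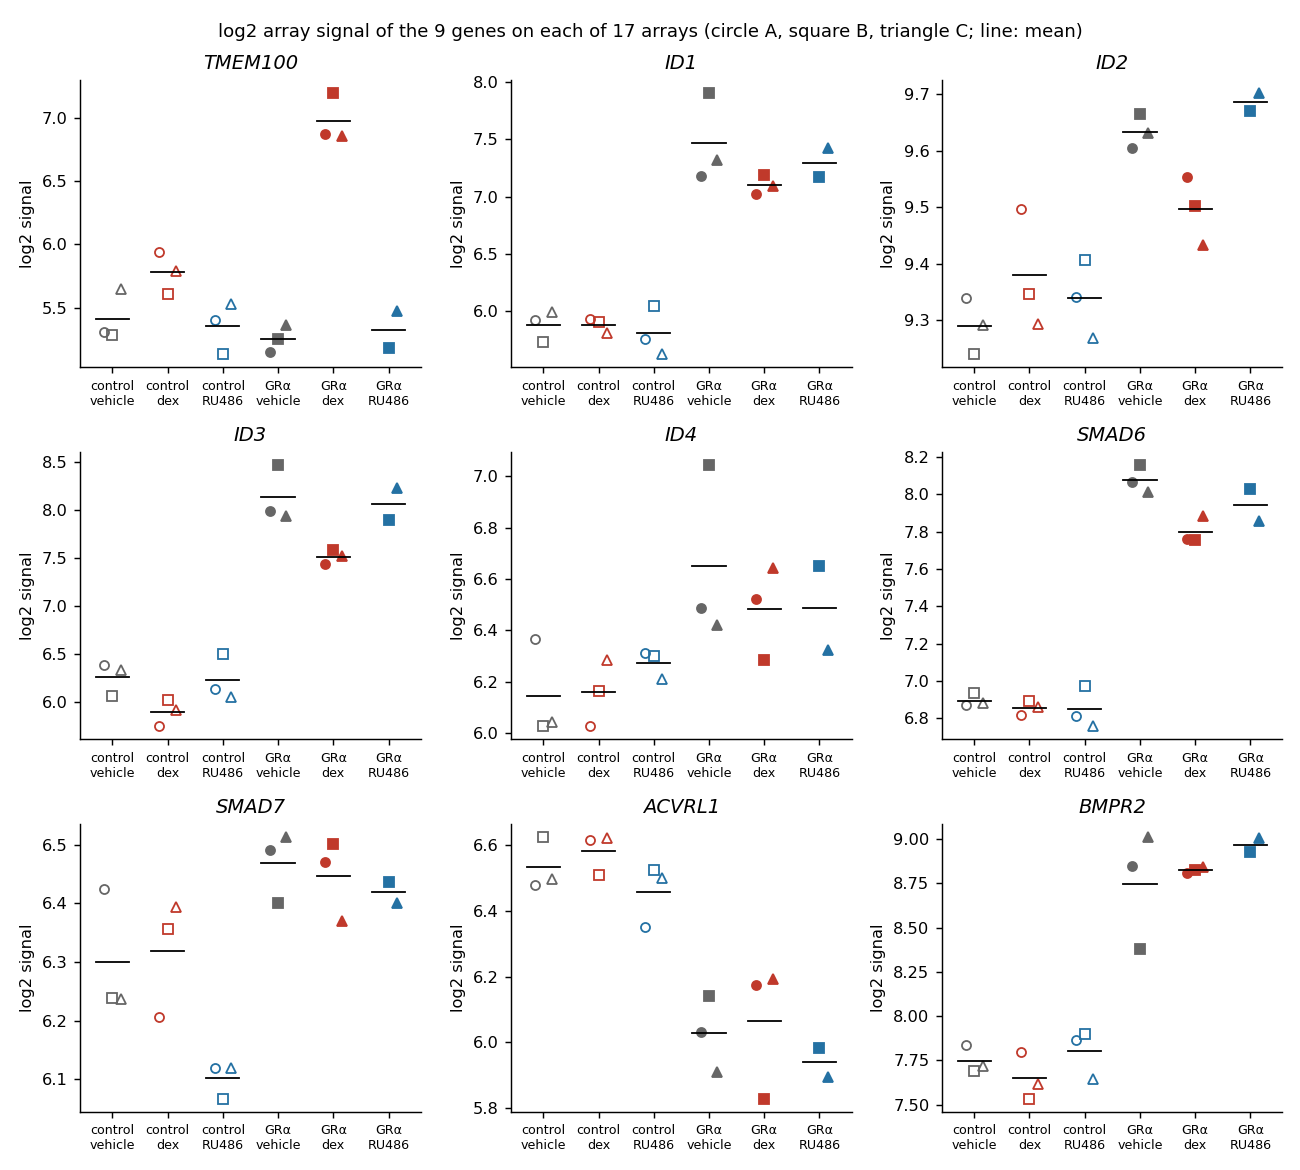
Each panel plots the log2 array signal of 1 gene (vertical axis, own scale) on the 17 arrays in 6 groups (horizontal axis). Open symbols are control cells, filled symbols are GRα cells, symbol shapes are replicates and lines are group means. TMEM100 stands out in GRα cells with dexamethasone (6.86 to 7.20), whereas ID1, ID3, SMAD6 and BMPR2 separate the lines under every treatment.

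Between the lines in vehicle, with no ligand added, most of the 7 genes that were not picked differed. ID1, ID2, ID4, SMAD6 and BMPR2 were called higher in GRα cells, and ACVRL1 was called lower. These 6 calls of 7 genes stand beside 33.4% of all genes called in this comparison, 15.0% higher and 18.3% lower (limma, Benjamini-Hochberg adjusted p under 0.05 over all genes). The lines thus differed at a large share of all genes, and the 7 genes were not drawn at random from them.

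Of the 2 receptor genes, BMPR2 and ACVRL1 went in opposite directions. BMPR2, the type II receptor for BMPs, read 7.84, 7.69 and 7.72 in control cells and 8.85, 8.38 and 9.01 in GRα cells in vehicle. It was 2-fold higher in GRα cells (log2 1.00 ± 0.12 SE, limma adjusted p = 3.50e-06). GRα replicate B was the lowest of its group, and the difference without it was 1.18 log2.

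ACVRL1, a type I receptor that works with BMPR2 and is best known in endothelium, read 6.48, 6.62 and 6.50 in control cells and 6.03, 6.14 and 5.91 in GRα cells. The 2 groups of arrays did not overlap, as was so for 40.5% of all genes, and the level was 1.42-fold lower (log2 -0.51 ± 0.09 SE, limma adjusted p = 0.000298). With RU486 the difference was -0.52 log2 (limma adjusted p = 0.00077), and with dexamethasone it was -0.52 (limma adjusted p = 0.000231), so ACVRL1 kept its place under all 3 treatments.

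The inhibitor genes differed in size. SMAD6, whose protein acts chiefly on BMP receptors, read 6.87, 6.94 and 6.88 in control cells and 8.06, 8.16 and 8.02 in GRα cells. It was 2.27-fold higher in GRα cells (log2 1.18 ± 0.07 SE, limma adjusted p = 6.41e-10), a difference far beyond the spread of either group. SMAD7, whose protein also blocks TGF-beta and activin receptors, read 6.42, 6.24 and 6.24 in control cells and 6.49, 6.40 and 6.51 in GRα cells. These groups overlapped at control replicate A, and the difference of 0.17 log2 was not called (95% interval 0.02 to 0.32, limma adjusted p = 0.0707). It was called without GRα vehicle replicate B (0.20 log2, limma adjusted p = 0.0405) and without control vehicle replicate A (0.23 log2, limma adjusted p = 0.024).

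Of the target genes, ID3 and ID1 had the largest differences between the lines. The lowest GRα vehicle array for ID3 (7.94) lay well above the highest control vehicle array (6.39), and the means differed by 1.87 log2 (3.66-fold), as a description. ID1 read 5.92, 5.73 and 6.00 in control cells and 7.18, 7.91 and 7.32 in GRα cells. It was 3-fold higher (log2 1.59 ± 0.15 SE, limma adjusted p = 1.42e-07). Replicate B was again the highest GRα array, and without it the ID1 difference was 1.37 log2 and the ID3 difference 1.71.

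ID2 and ID4 differed less. ID2 read 9.34, 9.24 and 9.29 in control cells and 9.61, 9.67 and 9.63 in GRα cells, tight groups that did not overlap. The difference was 1.27-fold (log2 0.34 ± 0.07 SE, limma adjusted p = 0.000432). ID4 read 6.37, 6.03 and 6.04 in control cells and 6.49, 7.04 and 6.42 in GRα cells. It was called at 0.51 ± 0.14 SE log2 (limma adjusted p = 0.0113), but the call rested on replicate B, without which the difference was 0.31 log2 (limma adjusted p = 0.0688).

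Promoter sequences of the target genes with the largest differences between the lines are shown so that they can be read beside these values. They are the 250 bases before the start site in RefSeq (GRCh38.p14), 5′ to 3′ on the strand of the gene, and capitals mark the motifs searched. RefSeq windows were matched for 7 of the 9 genes.
SMAD6, chr15:66701986-66702235, plus strand: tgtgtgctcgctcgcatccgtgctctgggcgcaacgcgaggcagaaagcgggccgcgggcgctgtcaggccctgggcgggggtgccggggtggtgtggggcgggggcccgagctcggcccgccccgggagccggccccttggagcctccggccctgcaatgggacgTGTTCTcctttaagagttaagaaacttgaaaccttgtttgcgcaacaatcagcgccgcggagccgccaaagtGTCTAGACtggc
ID1, chr20:31605039-31605288, plus strand: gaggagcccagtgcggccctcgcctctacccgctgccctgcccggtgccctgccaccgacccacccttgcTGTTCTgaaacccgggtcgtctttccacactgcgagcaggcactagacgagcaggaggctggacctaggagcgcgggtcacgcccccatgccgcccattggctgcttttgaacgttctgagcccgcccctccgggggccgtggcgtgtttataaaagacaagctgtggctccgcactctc
ID3, chr1:23559502-23559751, minus strand: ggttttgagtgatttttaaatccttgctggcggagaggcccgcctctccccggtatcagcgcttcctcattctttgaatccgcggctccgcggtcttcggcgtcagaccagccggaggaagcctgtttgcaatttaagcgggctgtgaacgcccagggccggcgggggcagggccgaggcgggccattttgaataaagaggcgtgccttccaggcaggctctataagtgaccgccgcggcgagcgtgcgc

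Both strands were searched for the palindromic SMAD binding element GTCTAGAC, the GC-rich SMAD motif GGCGCC, the hexamer TGTTCT of glucocorticoid response elements and the full element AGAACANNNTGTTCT, which contains the hexamer. The SMAD6 window holds GTCTAGAC, 12 to 5 bases before the start site, a motif found in 0.182% of all 35116 windows. TGTTCT lies 84 to 79 bases before the SMAD6 start and 180 to 175 before the ID1 start, and 12.4% of all windows hold it. GGCGCC was found in the BMPR2 window, 147 to 142 bases before the start, and is in 16.4% of all windows. The ID3 window holds none of the 4 motifs, and the full element is in no matched window of the 9 genes and in 0.00285% of all windows. A match of letters is a description of the window and not a measured binding site.

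With RU486 in both lines, 6 of the 7 genes that were not picked were called, 5 higher and 1 lower in GRα cells, beside 29.2% of all genes (13.1% higher and 16.2% lower). The group of GRα cells has 2 arrays here. ID3 differed by 1.83 log2, as a description. ID1 differed by 1.49 ± 0.16 SE log2 (limma adjusted p = 1.46e-06), SMAD6 by 1.09 ± 0.08 (limma adjusted p = 9.62e-09) and BMPR2 by 1.16 ± 0.13 (limma adjusted p = 2.56e-06). These sizes are close to those in vehicle. ID2 (0.35 log2, limma adjusted p = 0.00121) and SMAD7 (0.32 log2, limma adjusted p = 0.00438) were also higher in GRα cells. The SMAD7 control arrays read 6.12, 6.07 and 6.12 with RU486, below every other array of that gene, while the GRα arrays read 6.44 and 6.40. Groups were free of overlap at 54.8% of all genes in this comparison.

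With dexamethasone in both lines, 4 of the 7 genes that were not picked were called, 3 higher and 1 lower, beside 33.3% of all genes (15.7% higher and 17.6% lower). SMAD6 differed by 0.94 ± 0.07 SE log2 (limma adjusted p = 1.02e-08), ID1 by 1.22 ± 0.15 (limma adjusted p = 3.26e-06) and BMPR2 by 1.18 ± 0.12 (limma adjusted p = 4.66e-07). ID2 at 0.12 log2 (95% interval -0.02 to 0.25, limma adjusted p = 0.19) and ID4 at 0.32 log2 (95% interval 0.02 to 0.63, limma adjusted p = 0.098) were not called. ID3 was 3.06-fold higher and TMEM100 2.29-fold higher in GRα cells under dexamethasone, as a description. The arrays of the lines were apart for TMEM100, ID1, ID3, SMAD6, BMPR2 and ACVRL1 under dexamethasone, as they were for 45.6% of all genes. Those of ID4 were apart only before rounding, with the lowest GRα and highest control array both at 6.285.

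**Figure D2:**
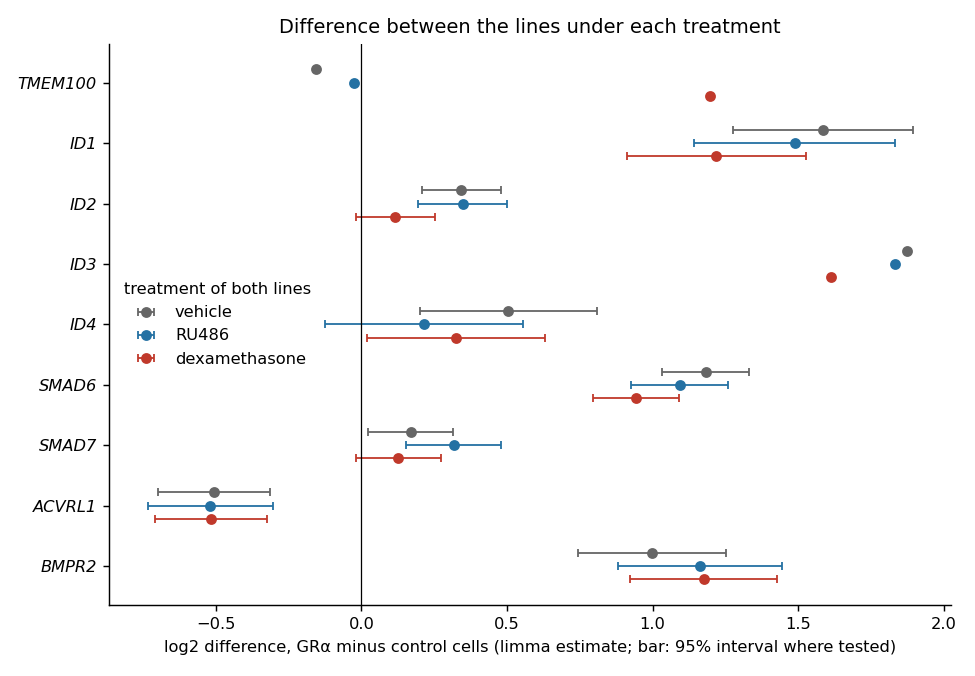
Points are the log2 difference between GRα and control cells (horizontal axis) for each gene (vertical axis) under vehicle, RU486 and dexamethasone, with 95% intervals for the 7 genes that were not picked. ID3, ID1, SMAD6 and BMPR2 lie near or above 1 log2 under all 3 treatments, ACVRL1 lies at about -0.51, and TMEM100 reads -0.16, -0.03 and 1.20 under vehicle, RU486 and dexamethasone.

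The comparison of dexamethasone with vehicle in each line asks what the agonist changed in 6 h. In GRα cells none of the 7 genes that were not picked was called, beside 2.02% of all genes (1.36% higher and 0.662% lower). At an unadjusted limma p under 0.05 there were 3 of the 7, and 2822 of the 18417 genes. ZBTB16 and PER1, which glucocorticoids are known to induce, were 2.49 and 1.34 log2 higher in the same arrays, and 1.42 and 0.95 log2 higher in control cells.

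SMAD6 came closest among the 7. It read 7.76, 7.76 and 7.89 with dexamethasone against the vehicle values of 8.06, 8.16 and 8.02 given above. The groups did not overlap, as was so for 15.8% of all genes, and the difference was -0.28 ± 0.07 SE log2 (1.21-fold lower, 95% interval -0.43 to -0.13, limma adjusted p = 0.0519). Without the dimmest 25% of genes the adjusted p was 0.0317, and without GRα vehicle replicate B it was 0.152 at -0.24 log2, so the call depends on the setting.

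ID1 read 7.02, 7.19 and 7.10 with dexamethasone in GRα cells, overlapping the vehicle arrays. Its difference of -0.37 ± 0.15 SE log2 was not called (limma adjusted p = 0.245) and came to -0.15 without GRα vehicle replicate B. ID2 read 9.55, 9.50 and 9.43, below its 3 vehicle arrays, and differed by -0.14 log2 (95% interval -0.27 to 0.00, limma adjusted p = 0.322). ID4 differed by -0.17 log2 (95% interval -0.47 to 0.14, limma adjusted p = 0.615) and by 0.03 without GRα vehicle replicate B.

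The receptor genes and SMAD7 had differences near 0. SMAD7 differed by -0.02 log2 (95% interval -0.17 to 0.12), ACVRL1 by 0.04 (95% interval -0.16 to 0.23) and BMPR2 by 0.08 (95% interval -0.17 to 0.33) in GRα cells. Without vehicle replicate B these were -0.06 for SMAD7, 0.10 for ACVRL1 and -0.10 for BMPR2. The array values of BMPR2 with dexamethasone, 8.81, 8.82 and 8.84, were the tightest of any group of that gene.

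In control cells dexamethasone again gave no limma call among the 7, beside 0.261% of all genes called. None of the 7 had an unadjusted p under 0.05, as 904 of the 18417 genes did. The differences ran from -0.10 log2 for BMPR2 to 0.09 for ID2. SMAD6 differed by -0.04 log2 (95% interval -0.19 to 0.11) and ID1 by 0.00 (95% interval -0.31 to 0.31). For the line difference in the dexamethasone effect, 2 of 7 and 1361 of 18417 genes had an unadjusted limma p under 0.05. This difference between the lines was not called by limma for any of the 7 genes, beside 0.0652% of all genes. It was -0.24 log2 for SMAD6 (95% interval -0.45 to -0.03, limma adjusted p = 0.624), -0.37 for ID1 (95% interval -0.80 to 0.07, limma adjusted p = 0.732, and -0.15 without GRα vehicle replicate B) and -0.23 for ID2 (95% interval -0.42 to -0.03, limma adjusted p = 0.606).

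**Figure D3:**
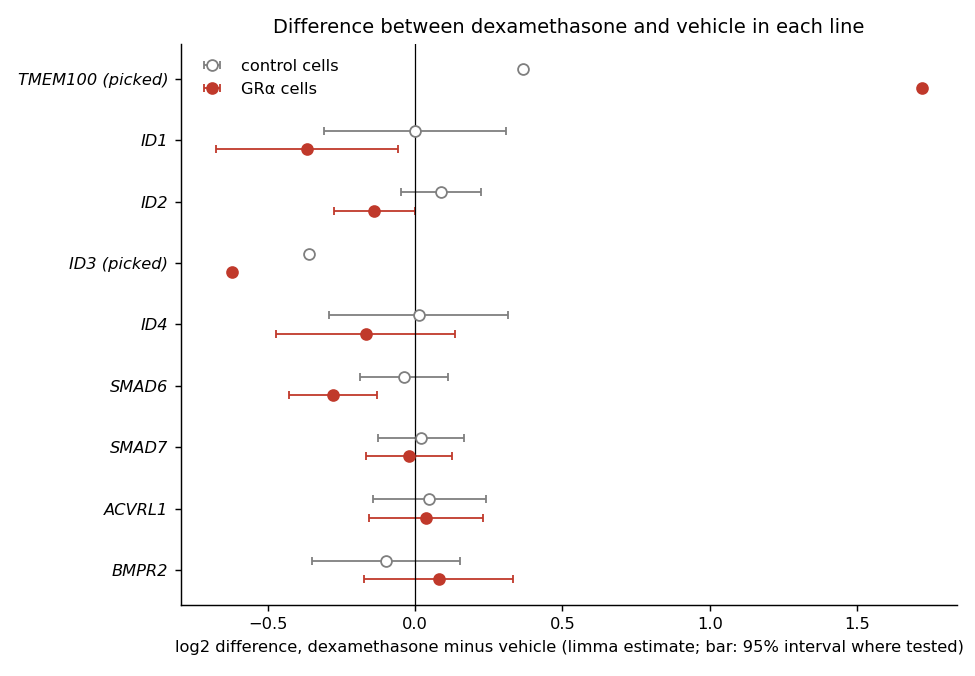
Points are the log2 difference between dexamethasone and vehicle (horizontal axis) for each gene (vertical axis) in control cells (open) and GRα cells (filled), with 95% intervals for the tested genes. The picked genes TMEM100 (1.72 in GRα cells) and ID3 (-0.62) lie farthest from 0, and of the tested genes ID1 (-0.37) and SMAD6 (-0.28) lie farthest, with SMAD6 closest to the threshold (adjusted p = 0.0519).

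RU486 against vehicle gave no call among the 7 genes that were not picked in either line, and 0 of the 18417 genes were called in either line by limma (0%). At an unadjusted p under 0.05 there were 1572 genes in GRα cells, none of the 7 among them, and 621 in control cells, with 1 of the 7 (SMAD7). In GRα cells the 7 differences ran from -0.17 log2 for ID1 to 0.22 for BMPR2, and both ends rested on vehicle replicate B, without which ID1 was at 0.05 and BMPR2 at 0.04. In control cells they ran from -0.20 for SMAD7 (95% interval -0.34 to -0.05, limma adjusted p = 0.999; its groups did not overlap, as at 12.2% of all genes) to 0.13 for ID4. TMEM100 differed by 0.07 log2 in GRα cells and ID3 by -0.07 (0.10 without vehicle replicate B), and the RU486 arrays of both genes overlapped those in vehicle and not those with dexamethasone.

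Dexamethasone was also compared with RU486, at the same dose and time. None of the 7 genes was called by limma in GRα cells (0.896% of all genes called) or in control cells (0.364%). In each line 1 had an unadjusted p under 0.05, as did 1629 of 18417 genes in GRα cells and 1102 in control cells. ID2 differed by -0.19 log2 in GRα cells (95% interval -0.34 to -0.04, limma adjusted p = 0.388). SMAD7 was 0.22 log2 higher with dexamethasone in control cells, where the arrays of 6.21, 6.36 and 6.39 all lay above those with RU486 (95% interval 0.07 to 0.36, limma adjusted p = 0.432). These comparisons and those with vehicle use the same dexamethasone arrays.

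The wider pathway was read in 73 measured genes of 76 listed ligands, receptors, SMADs and co-regulators, antagonists and other targets. Between the lines in vehicle 25 of 73 were called (34.2%), 16 higher and 9 lower in GRα cells, a share near the 33.4% of all genes. The median difference over the 73 was 0.07 log2, against 0.01 over all genes. With RU486 in both lines 21 were called (28.8%, beside 29.2% of all genes) and with dexamethasone 26 (35.6%, beside 33.3%).

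Among ligand genes in vehicle, BMP6 (0.84 ± 0.06 SE log2), TGFB2 (0.56), BMP4 (0.36) and BMP2 (0.33) were higher in GRα cells. The inhibin subunit gene INHA was lower (-0.27), which made 5 of 21 called (23.8%, beside 33.4% of all genes). Among 14 receptors and co-receptors, NEO1, a co-receptor gene, was higher (1.09 ± 0.07), and AMHR2 (-0.96), ACVR2A (-0.71), TGFBR2 (-0.50) and ACVR1B (-0.31) were lower. These calls were 5 of 14 (35.7%). Among 11 SMADs and co-regulators, SMAD3, which carries TGF-beta and activin signals, was 2.83-fold higher (1.50 ± 0.09 SE log2, limma adjusted p = 3.71e-10) and the co-repressor gene SKIL was higher (0.49). SMAD1, which carries BMP signals, was lower (-0.37), as was SMAD2 (-0.47). The calls here were 4 of 11 (36.4%), and the shares of both lists are near that of all genes.

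The extracellular inhibitors included the largest difference of the lists. FST, which encodes follistatin, an antagonist of activins and some BMPs, read 9.06 ± 0.15 SD in GRα cells and 7.31 ± 0.06 SD in control cells (n = 3 each), 3.36-fold higher (limma adjusted p = 1.28e-10). The BMP antagonist gene NOG (0.84 log2), TWSG1 (0.84) and FSTL1 (0.47) were higher as well. BAMBI, which encodes a decoy receptor, was lower (-0.59), which made 5 of 13 called (38.5%, beside 33.4% of all genes). Of 14 other BMP target genes, MSX2 (0.93 ± 0.09 SE), ATOH8 (0.43), HEY2 (0.37), DLX5 (0.35) and TOB1 (0.27) were higher and GATA3 (-0.57) was lower. These are 6 of 14 (42.9%), beside 33.4% of all genes (15.0% higher and 18.3% lower). With 1 array of these groups left out, the INHA and DLX5 calls were kept in 3 of 6 fits each (INHA adjusted p = 0.25 without GRα vehicle replicate B, DLX5 0.113 without replicate C), and those of BMP2 (0.0526 without control replicate A) and ATOH8 (0.0504 without GRα replicate B) in 5 of 6.

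Under dexamethasone in GRα cells 6 of the 73 genes were called (8.22%, beside 2.02% of all genes), 2 higher and 4 lower. TGFB3 rose by 0.42 ± 0.07 SE log2 (limma adjusted p = 0.00262), from 5.85 ± 0.05 SD to 6.27 ± 0.09 SD (n = 3 each). SMURF1, a ubiquitin ligase gene whose product marks BMP SMADs and receptors for degradation, rose by 0.37 (limma adjusted p = 0.00491). SMAD1 fell by 0.43 ± 0.08 SE log2 (limma adjusted p = 0.0062), and TGFBR1 fell by 0.28 (limma adjusted p = 0.0111).

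BMP4 fell by 0.41 ± 0.10 SE log2 (limma adjusted p = 0.0359), from 8.72 ± 0.25 SD to 8.32 ± 0.06 SD (n = 3 each), and TWSG1 fell by 0.28 (limma adjusted p = 0.0317). The calls for BMP4 and TWSG1 were kept in 2 and 1 of 6 fits that left out 1 array of the groups compared, and that of TGFBR1 in 5, with highest adjusted p-values of 0.119 (BMP4, without GRα dexamethasone replicate A), 0.116 (TWSG1) and 0.0527 (TGFBR1, both without GRα dexamethasone replicate B). The count of 6 fell to 3 without GRα dexamethasone replicate B and to 0 when only the 2 groups compared were fitted. The share of all genes called in those fits is not given, so these lower counts have no background beside them. None of the 14 other BMP targets was called by limma (5 at an unadjusted p under 0.05, as were 2822 of all 18417 genes). A positive difference was seen for 2 of the 14, beside 45.6% of all genes, with a median of -0.13 log2 against -0.01 over all genes. This count and median were not recomputed without GRα vehicle replicate B. In control cells none of the 73 was called under dexamethasone (9 at an unadjusted limma p under 0.05, as were 904 of all genes). None was called for a line difference in its dexamethasone effect (5 at an unadjusted p under 0.05, as were 1361 of all genes). Against RU486 in GRα cells TGFB3 was called (0.41 log2 higher with dexamethasone, limma adjusted p = 0.0131), in 1 of 5 fits that left out 1 array (highest adjusted p 0.204, without GRα RU486 replicate B).

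**Figure D4:**
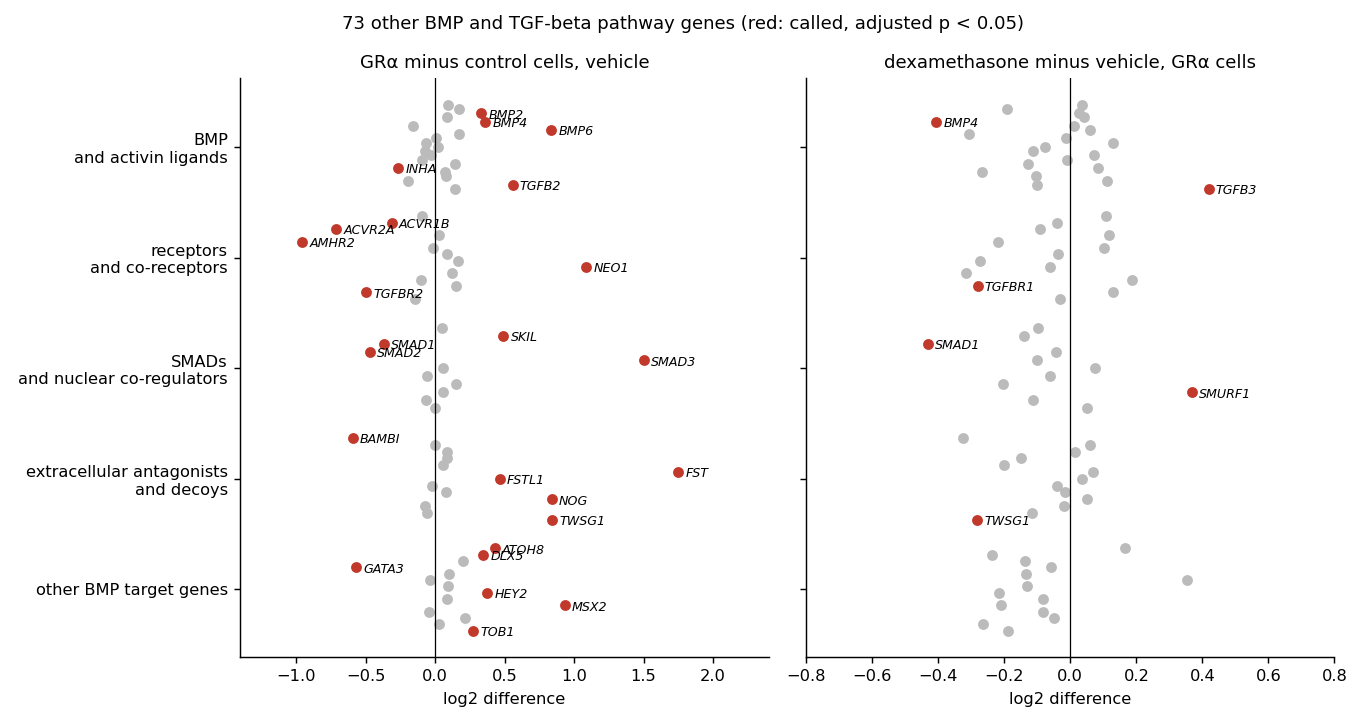
Each point is 1 of the 73 pathway genes, grouped by role (vertical axis), with its log2 difference (horizontal axis) between the lines in vehicle (left) and between dexamethasone and vehicle in GRα cells (right). Red, named points were called by limma, 25 at left with FST farthest out at 1.75 and 6 at right between -0.43 and 0.42. These are 34.2% and 8.22% of the 73, beside 33.4% and 2.02% of all genes.

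The genes whose log2 values over the 17 arrays were most like those of TMEM100 were CPPED1 (Pearson r = 0.947), OR7A5 (0.943), TRAF3IP2 (0.940), MEIS1 (0.937) and RASGRF1 (0.934). Taken as deviations from the mean of the line, ZNF189 (0.975), VCL (0.952), EEF2K (0.952), GREB1L (0.949) and CPPED1 (0.947) were closest. For ID3 the closest over all 17 arrays were SLC44A5 (0.989), PURB (0.981), CXADR (0.981), CDH12 (0.981) and TCF4 (0.980). Within the lines they were BMP4 (0.908), SLC44A5 (0.880), VCAM1 (0.872), TOB1 (0.869) and OR7D4 (0.860). TMEM100 and ID3 were picked for their dexamethasone responses, which are part of these deviations. The points share arrays, lines and treatments, and GRα vehicle replicate B has the highest ID3 value, so these correlations are descriptions of 17 arrays.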

How the data were processed

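The authors deposited log2 signals for 29153 probe sets. They used RMA, per the submitters' processing notes, a method that includes quantile normalization, so a common shift of most RNAs cannot be seen. The sources used here give no version, setting or genome build. Per the labels' protocols, 100 ng of total RNA was labelled by random priming. Of 18 arrays, 17 hold values, and GRα RU486 replicate A failed quality control per the labels.

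Probe sets with 1 symbol (19460, of which 19429 matched RefSeq by Entrez number) were used, the brightest for each gene. Those with several symbols (1754) or none (7939) were left out, which gave 18417 genes. All 10 contrasts, two-sided, came from a single fit with limma 3.58.1 under R 4.3.3, with a mean per group over 17 arrays (11 residual and 5.89 prior degrees of freedom). A gene was called when its p, adjusted by Benjamini-Hochberg over all genes, was under 0.05. The number of arrays limits the precision. On simulated data for dexamethasone in GRα cells (18417 genes, 200 changed), the share called was 75% at a change of 0.5 log2 and 98% at 1 log2, with 8 false of 181 calls. The simulation gave every array the same spread for a gene. It thus has no array like GRα vehicle replicate B, and these shares may be too high for the real comparison.

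TMEM100 and ID3, picked for dexamethasone responses, are given without a test, and calls are counted over the 7 other members, although the design had counted all 9 where no dexamethasone array entered. The members, lists and tests were chosen with earlier results of these data known. The text names all 9 members, called genes of the lists, NR3C1, ZBTB16 and PER1 as checks, and the 5 genes most like TMEM100 and ID3. Alternatives were median centring, a filter on dim genes, trend and robust options, array weights, the mean of a gene's probe sets, only the groups compared, a replicate block and leaving out each array.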

Additional observations from a re-analysis of the deposited data

How the results depend on the processing

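Over 1536 recomputed differences of the 9 genes, 1497 kept their direction and, where tested, their side of the threshold, 13 became called, 1 was no longer called and 25 changed sign, none of them a called difference. These differences cover all 9 genes between the lines and for dexamethasone against vehicle in GRα cells. In the other comparisons they cover only some of the 9 genes. The lost call is ID4 between the lines in vehicle. Calls were gained for SMAD7, ID2 and ID4 between the lines, for SMAD6 under dexamethasone in GRα cells and for SMAD7 between dexamethasone and RU486 in control cells. SMAD7 in vehicle was called with median centring (limma adjusted p = 0.045) and with array weights (limma adjusted p = 0.0155). Among the 7 genes under dexamethasone in GRα cells, the count of 0 became 1 (SMAD6) without the dimmest 25% of genes and with trend and robust options, and was 0 to 1 with 1 array left out. For the 73 pathway genes that count of 6 became 0 with only the groups compared and was 3 to 7 with 1 array left out. In control cells it went from 0 to 2 with array weights. For dexamethasone against RU486 in GRα cells the count of 1 became 3 without dim genes, 5 with trend and robust options, 4 with array weights and 0 with only the groups compared, and was 0 to 4 with 1 array left out. In control cells array weights gave 1 of the 7 genes (SMAD7, 0.24 log2, limma adjusted p = 0.0421) and 2 pathway genes. No share of all genes called in the same fit is given beside these counts, so they cannot be set against a background. Array weights also turned BMPR2 under dexamethasone in GRα cells (-0.051), ID1 under dexamethasone in control cells (-0.042) and ID3 under RU486 in GRα cells (0.050). The causes of these changes were not tested.

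Among these recomputed differences the sign varied, with 1 array left out, for TMEM100 between the lines under RU486 (-0.174 to 0.120). Under dexamethasone in GRα cells it varied for ID4 (-0.283 to 0.029), SMAD7 (-0.055 to 0.017), ACVRL1 (-0.026 to 0.156) and BMPR2 (-0.103 to 0.212). It varied for ID1 under dexamethasone in control cells (-0.075 to 0.057). Under RU486 it varied in GRα cells for TMEM100 (-0.075 to 0.219), ID3 (-0.236 to 0.098) and ID1 (-0.315 to 0.049), and in control cells for TMEM100 (-0.146 to 0.060) and ID3 (-0.165 to 0.057). Differences outside that set varied in sign too. Among them were ID4 (-0.050 to 0.123) and SMAD7 (-0.017 to 0.082) under dexamethasone in control cells. Others were ID4 under RU486 in GRα cells (-0.327 to 0.033) and ID1 under RU486 in control cells (-0.191 to 0.018). Correlations of the deviations of same-lettered replicates were -0.21 to 0.32. In control cells A and B were above 0.1 for dexamethasone against vehicle (0.32 and 0.15) and for RU486 against vehicle (0.19 and 0.13), but C was not (-0.02 and 0.02), and in no comparison was every letter above 0.1, so the samples were not treated as paired. With the replicate block the count under dexamethasone in GRα cells stayed at 0 of 7 genes, and 24 pathway genes were called between the lines in vehicle in place of 25.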

Other observations

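TCF12 and TCF4, genes of E proteins, the basic helix-loop-helix factors that ID proteins bind, differed between the lines. TCF12 read 9.55 ± 0.11 SD in GRα cells and 8.60 ± 0.04 SD in control cells in vehicle (n = 3 each), 1.94-fold higher (limma adjusted p = 4.80e-09). TCF4 read 9.88 ± 0.05 SD and 8.95 ± 0.07 SD (n = 3 each), 1.9-fold higher (limma adjusted p = 3.16e-09). These were 2 of the 6 listed partner genes (33.3%, beside 33.4% of all genes), and the other 4 were not called. None of the 6 was called by limma under dexamethasone in either line. At an unadjusted p under 0.05 there was 1 in GRα cells (2822 of all 18417 genes) and 0 in control cells (904).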
